A study of Homo sapiens with 12 samples.

Results

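The histone genes were taken as every row of the 2 count tables whose symbol began with HIST1H to HIST4H, H2AF, H3F3 or H1F, which gave 92 genes of 28008. Of these, 71 were classed as clustered, the class of replication-dependent genes (55 in HIST1 on chromosome 6, 12 in HIST2, 3 in HIST3 and 1 in HIST4). They encode H1 (6 genes), H2A (17), H2B (18), H3 (15) and H4 (15). The class was set by symbol, and whether each of its genes depends on replication was not tested. Another 16 were variant (replacement) genes, 4 of H1, 9 of H2A and 3 of H3. The other 5 were 4 pseudogenes (H3F3AP4, HIST1H2APS1, HIST2H2BA and HIST2H2BC) and the antisense gene H1FX-AS1, which were counted apart.

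RNA was sequenced from the pancreatic neuroendocrine tumor lines QGP-1 and BON-1, each carrying a doxycycline (DOX)-inducible short hairpin against MUC1 (tet-MUC1shRNA) under puromycin selection. In each line 3 cultures received vehicle and 3 received 500 ng/mL DOX for 7 days, which gave 12 libraries in 4 groups of 3. The hairpin vector was present in vehicle and DOX cultures alike, neither a parental line nor a DOX-treated control hairpin was analysed here, and an effect of DOX itself and of the hairpin cannot be told apart. Whether the DOX cultures also held DMSO is not given in the sources used here, so a solvent effect cannot be told apart from these. QGP-1 was grown in RPMI 1640 and BON-1 in DMEM/F-12, so line, medium and any handling that differed with the line cannot be told apart either.

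Clustered histone genes are transcribed mainly in S phase, when new DNA has to be packaged. Their mRNAs are the only known animal mRNAs that normally end in a conserved stem-loop, bound by SLBP, in place of a poly(A) tail. Variant genes lie outside the clusters, are transcribed through the cell cycle, and give polyadenylated mRNAs for replacement histones such as H2A.Z, macroH2A, H3.3 and H1.0. These libraries were selected on poly(A), so a clustered histone mRNA reached them only through a poly(A) tail or through carry-over. A change in the amount of clustered mRNA, in the share of it that carried a tail and in the carry-over cannot be told apart, nor can fewer cells in S phase and less histone mRNA per cell.

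The stem-loop is the sequence feature that sets the 2 classes apart, so its main forms are shown here with the stem in capitals and the loop in lower case, written 5′ to 3′ as DNA of the mRNA strand. It was found on hg38 in all 71 clustered genes, 22 to 67 bases after the stop codon (median 35), in 10 different sequences of 16 bases. The first form stood in 41 clustered genes, none of them H4, and the second in 10 genes of H1, H2A, H2B and H3. The forms shown for HIST1H4B and HIST1H4I stood in 10 and 4 genes, all H4. The last is that of H2AFX, the only variant gene with a stem-loop.
HIST1H1B, chr6:27866797-27866812: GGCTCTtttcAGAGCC
HIST1H2BK, chr6:27146366-27146381: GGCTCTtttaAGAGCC
HIST1H4B: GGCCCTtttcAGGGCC
HIST1H4I: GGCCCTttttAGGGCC
H2AFX, chr11:119094898-119094913: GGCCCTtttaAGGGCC
For 18 of the 71 clustered genes and for H2AFX, the GENCODE annotation also held a transcript running over 100 bases past the loop, the kind of transcript that can carry a poly(A) tail.

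Total counts per library ran from 38224144 to 50525926 in QGP-1 and from 15981954 to 28484324 in BON-1. MUC1, the target of the hairpin, fell with DOX from 6.21 ± 0.846 to 0.829 ± 0.183 CPM (counts relative to the library total, with the total scaled by TMM, the trimmed mean of M-values, mean ± SD, n = 3) in QGP-1 and from 19.0 ± 2.91 to 2.70 ± 1.25 CPM in BON-1. Of 10 neuroendocrine marker genes, 9 were at 1 CPM or more in every group. They were not the same 9, as NEUROD1 had a mean of 0 CPM in both QGP-1 groups and ISL1 in both BON-1 groups. The summed level of the 10 ran from 5939 to 6789 CPM in QGP-1 vehicle and 6739 to 7348 with DOX. In BON-1 it ran from 11690 to 15190 in vehicle and 9572 to 9921 with DOX. There the mean of CHGA fell from 7875 to 2870 CPM, and those of SYP, INSM1, ENO2 and PCSK1 were lower too. Those of CHGB, SCG2 (2621 to 3605 CPM), SCG3 and NEUROD1 were higher. Of 6 acinar markers 1 or 2 were at 1 CPM or more, and the sum was lower with DOX without overlap. It was 84.9 to 155.7 and then 30.01 to 41.6 CPM in QGP-1 and 35.5 to 45.5 and then 19.96 to 27.8 in BON-1. The sum was nearly all PRSS1, whose mean went from 124.2 to 34.8 CPM in QGP-1 and from 37.55 to 22.5 in BON-1. In BON-1 the mean of CPA1 fell from 0.967 to 0.296 CPM. The mean of CEL went the other way, from 0.234 to 0.347 CPM in QGP-1 and from 0.948 to 1.33 in BON-1. In BON-1 the sums of 4 ductal markers (375.5 to 444.1, then 467.3 to 586.5 CPM) and of 6 immune markers (22.8 to 25.9, then 48.0 to 51.2 CPM, nearly all CD68, with a PTPRC mean of at most 0.0826 CPM in any group) were higher with DOX. Of the ductal markers, KRT7 went the other way, from a mean of 110.3 to 76.9 CPM. The part of these shifts in the histone results was not tested. All p-values below come from edgeR's quasi-likelihood test with Benjamini-Hochberg adjustment over all genes tested, a call is an adjusted p under 0.05, and a fold change is DOX over vehicle on the log2 scale ± its standard error unless stated. They measure the spread between 3 cultures of 1 line.

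Not every member could be measured. Of the clustered genes 57 had enough counts to be tested in QGP-1, 56 in BON-1 and 54 in both, and of the variants 10 in each line. At 0 counts in all 12 libraries were 8 clustered genes, HIST2H3A, HIST2H3C, HIST2H4A, HIST2H4B, HIST2H2AA3, HIST2H2AA4, HIST1H4F and HIST1H4G, and 4 variants, H3F3A, H2AFB1, H2AFB2 and H2AFB3. The first 6 of those clustered genes share 97.5 to 100% of their 50-base stretches with another member, and HIST1H4F and HIST1H4G share 0%. How reads shared by copies were counted is not given in the sources used here, and its part in these counts of 0 was not tested. H3F3A, which encodes H3.3, stood at 0 while its near-copy H3F3AP4 held 21917 counts over the QGP-1 libraries and 8471 over the BON-1 libraries. Values for H3F3A and H3F3AP4 are therefore uncertain, and H3.3 is read below from H3F3B alone. Other testable members that share much sequence with another, and whose values are uncertain for that reason, are HIST1H4K (92.6%), HIST1H4J (92.1%), HIST2H3D (70.0%), HIST1H2AM (67.8%), HIST1H2AJ (66.3%) and HIST1H2AI (63.5%). The remaining untested members were clustered genes HIST1H1A, HIST1H2AA, HIST1H2BA and HIST3H3 and the variants H1FNT and H1FOO, none above 23 counts in all 6 libraries of a line.

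The first comparison asked what happened to clustered and variant histone transcripts when the MUC1 hairpin was induced. Summed over the 71 clustered genes, the 3 QGP-1 vehicle libraries held 11210, 12020 and 9709 CPM and the 3 DOX libraries 6737, 7035 and 6877. Every DOX library lay below every vehicle library, and the mean fell by 37.3%. In BON-1 the vehicle libraries held 6956, 6449 and 7291 CPM and the DOX libraries 5366, 4875 and 4314, again without overlap, and the mean fell by 29.7%. The 16 variants together went from 1709 ± 56.7 to 1763 ± 43.1 CPM in QGP-1, where the groups overlapped, and from 1840 ± 66.0 to 1478 ± 33.6 CPM in BON-1, where they did not. An exact two-sided permutation test of 3 libraries against 3 cannot go below p = 0.1, so these sums carry no test of their own.

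**Figure D1:**
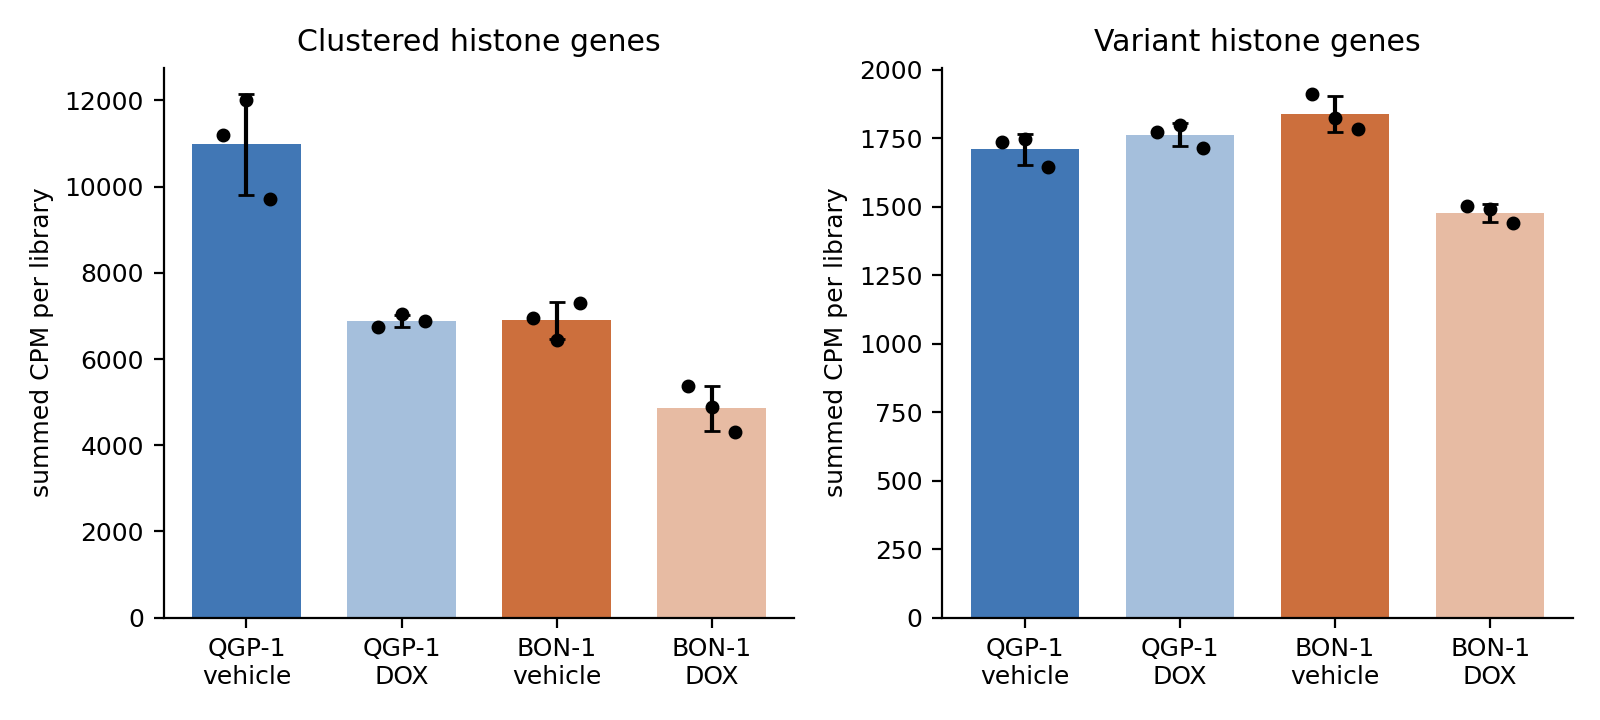
Summed CPM over 71 clustered (left) and 16 variant (right) histone genes in each group, with bars for the mean, error bars for the SD and points for the 3 libraries; the right axis is its own scale. The clustered sum was lower in every DOX library than in every vehicle library of the same line. The variant sum was lower with DOX in BON-1 alone. On summed TPM the QGP-1 clustered groups overlapped and the QGP-1 variant sum was higher with DOX. The BON-1 variant groups overlapped on summed TPM too.

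Gene by gene, 51 of 57 clustered genes were called lower with DOX in QGP-1 and 0 higher, with a median fold change of -0.78 against -0.01 over all genes. Over all 15089 genes tested there, 17.7% were called lower and 17.3% higher. In BON-1, 45 of 56 were called lower and 0 higher, with a median of -0.57 against -0.01, where the shares over all genes were 18.3% and 17%. The count of clustered genes called higher was also 0 in both lines at an unadjusted p under 0.05 and with DESeq2, which called 50 and 44 of them lower. The 3 DOX libraries lay below the 3 vehicle libraries for 49 clustered genes in QGP-1 and 44 in BON-1, against 23.2% and 23.9% of all genes. With each library left out in turn, 46 of the 51 QGP-1 calls and 41 of the 45 BON-1 calls held in all 6 fits.

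Variants moved less and not alike in the 2 lines. In QGP-1, 2 of 10 were called lower (H2AFZ and H1FX) and 1 higher (H1F0), with a median of -0.08. In BON-1, 7 of 10 were called lower and 0 higher, with a median of -0.30, and 9 of 10 had all DOX libraries below all vehicle libraries. No variant was higher in BON-1 at an unadjusted p under 0.05 or with DESeq2 either. A pair of variants, H1FX and H2AFZ, and 40 of the 54 clustered genes tested in both lines were called lower in both, against 978 of 13535 genes in all. The clustered genes called in neither line were HIST1H2AD, HIST1H2BK and HIST2H3PS2, the first and last of which were named after their values were seen. HIST1H2AD held at most 0.694 CPM in a QGP-1 and 2.25 CPM in a BON-1 library, and HIST2H3PS2 at most 0.813 and 6.60 CPM.

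These directions hold relative to the other genes of the same library. On the deposited TPM values, which the abundant non-polyadenylated RNAs weigh on, the median of all genes itself moved by 0.59 in QGP-1 and by -0.31 in BON-1 (limma on log2(TPM + 1)). Without removing that shift, 6 clustered genes were called lower and 7 higher in QGP-1, with 0 variants lower and 10 higher, and in BON-1 21 clustered genes and 1 variant were called lower. Those BON-1 calls were fewer although the medians were more negative, at -0.93 for clustered and -0.62 for variant genes, and 369 genes were called in all. With each library centred on its median, 48 and 44 clustered genes were called lower and the variants gave 2 lower and 3 higher in QGP-1 and 7 lower in BON-1. Of 57 genes named here and tested in QGP-1, 30 took the opposite sign without the centring. Among them were HIST1H1B, HIST1H1C, HIST2H2BE, HIST2H2AC and H2AFZ, and also genes outside the histone members such as CHAF1B, TK1 and SLBP.

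**Figure D2:**
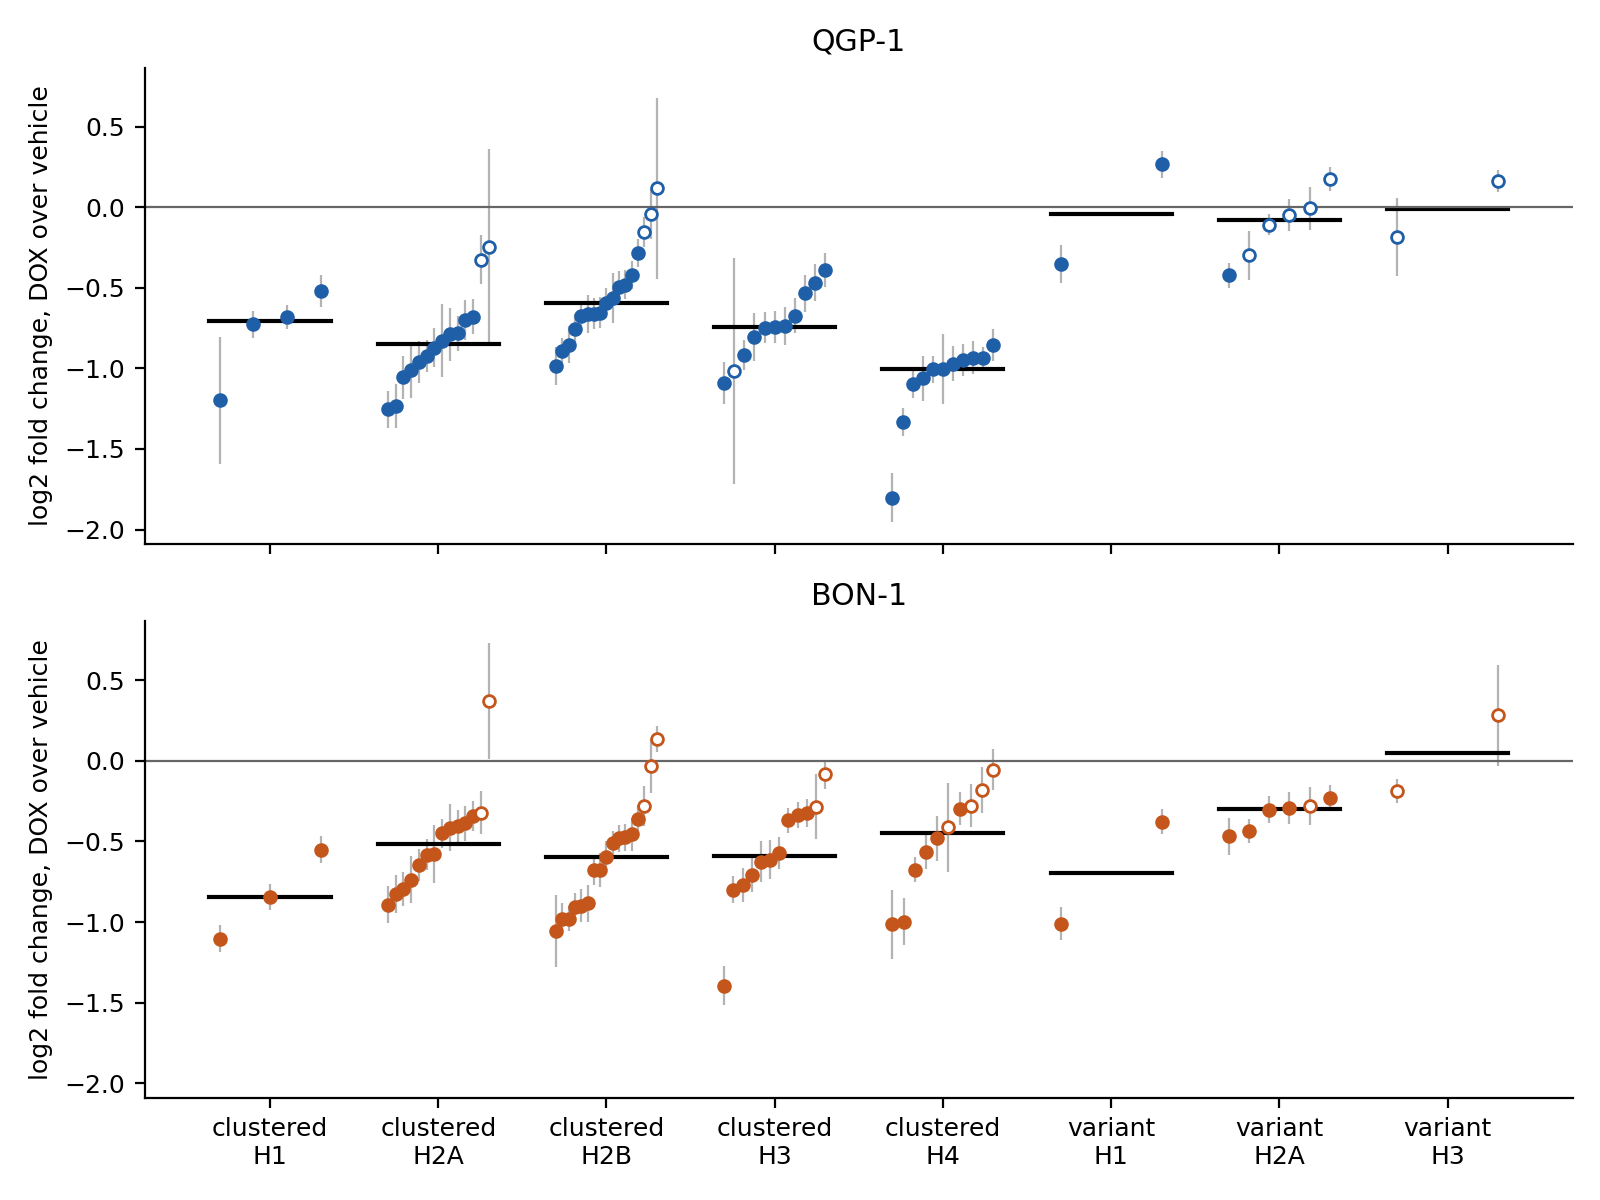
Log2 fold change, DOX over vehicle, of each tested histone gene by encoded protein and class in QGP-1 (top) and BON-1 (bottom); filled points were called (adjusted p under 0.05, edgeR), open points were not, vertical lines are standard errors and black lines medians. Clustered genes of all 5 proteins lay mostly below 0 in both lines, with H4 lowest in QGP-1 (median -1.0) but not in BON-1 (median -0.45). The values are relative to other genes. On uncentred TPM 30 named QGP-1 genes change sign, some of them genes of other lists that are not drawn here.

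Linker histone H1 binds the DNA where it enters and leaves the nucleosome. Its clustered genes were called lower in every case tested, 4 of 4 in QGP-1 (median -0.70) and 3 of 3 in BON-1 (median -0.84). The QGP-1 genes included HIST1H1T, the lowest of them at -1.20 but with a vehicle mean of only 1.31 CPM, which was named after its values were seen. HIST1H1C, which encodes H1.2, held 886.5, 948.9 and 781.6 CPM in QGP-1 vehicle and 559.9, 535.7 and 537.4 with DOX. In BON-1 it held 544.8, 549.6 and 625.9 CPM in vehicle and 432.4, 370.7 and 371.0 with DOX. All DOX libraries lay below all vehicle libraries of their line, with fold changes of -0.68 ± 0.07 (adjusted p = 1.62e-05) and -0.55 ± 0.08 (adjusted p = 6.62e-06). HIST1H1E, which encodes H1.4, fell by 0.52 and 0.84 on the log2 scale.

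A pair of H1 genes was each found almost entirely in 1 line. HIST1H1B (H1.5; chr6:27866792-27867588, hg38) held 1139, 1399 and 1120 CPM in QGP-1 vehicle and dropped to 736.2, 706.7 and 767.3 CPM with DOX (-0.73 ± 0.08, adjusted p = 2.31e-05). In BON-1 it had 5 counts over 3 vehicle libraries and 12 over all 6. The vehicle level in QGP-1 was 17250 times that in BON-1, with a 95% counting interval from 7392 to 53130. All 5 counts were in BON-1 vehicle replicate 3, so the ratio was 10110 without vehicle replicate 1 and at least 21250-fold, against a floor of 3 counts, without replicate 3. HIST1H1D (H1.3; chr6:26234212-26234987) showed the reverse, with 0 counts in all 6 QGP-1 libraries and 241.8, 243.0 and 265.8 CPM in BON-1 vehicle. Against a floor of 3 counts over the 3 QGP-1 vehicle libraries, it was at least 10630-fold higher in BON-1 (at least 6631-fold without QGP-1 vehicle replicate 3). With DOX it dropped there to 126.4, 121.7 and 101.5 CPM, with no overlap (-1.10 ± 0.08, adjusted p = 3.60e-11). Neither gene shares a 50-base stretch with another member, and the intervals cover counting error only.

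The promoters of these 2 H1 genes are shown because both genes encode a linker histone and they were detected in opposite lines. The runs are 120 bases that end at the base before the RefSeq start (GRCh38.p14, minus strand, chr6:27867589-27867708 and chr6:26234988-26235107), with capitals for matches on either strand to the CCAAT box, to the TATA box letters TATAAA, to the octamer ATTTGCAT and to the H1 box AAACACA. H2AFZ (chr4:99950276-99950395, minus strand), a variant that fell in both lines, is set beside them.
HIST1H1B: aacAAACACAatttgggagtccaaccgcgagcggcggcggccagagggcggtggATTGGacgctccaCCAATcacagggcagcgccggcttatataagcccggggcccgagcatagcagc
HIST1H1D: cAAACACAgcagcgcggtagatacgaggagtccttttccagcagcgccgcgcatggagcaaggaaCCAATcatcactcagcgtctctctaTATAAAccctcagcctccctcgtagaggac
H2AFZ: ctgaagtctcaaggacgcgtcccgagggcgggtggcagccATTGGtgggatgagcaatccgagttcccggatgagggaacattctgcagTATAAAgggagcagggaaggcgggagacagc
Within 250 bases before the start, all 6 clustered H1 genes held AAACACA, against 4.95% of 27305 RefSeq promoters. CCAAT stood in 84.8% of 66 clustered and 78.6% of 14 variant promoters with a RefSeq entry (33.0% of all), and TATAAA in 66.7% and 28.6% (11.1% of all). By protein, CCAAT stood in every clustered H1, H2A, H2B and H3 promoter but in 3 of 13 of H4 (23.1%). The octamer stood in 11 of 16 H2A and 14 of 18 H2B promoters, in 1 of 13 of H3 and in 0 of 13 of H4, against 1.66% of all. A match is a description of the letters, not a test of binding.

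Among the variant H1 genes, H1F0 (H1.0, the linker histone of differentiated and resting cells) went in opposite directions in the 2 lines. In QGP-1 it held 216.9, 239.3 and 204.7 CPM in vehicle and 297.6, 247.3 and 250.6 with DOX, all above vehicle (0.27 ± 0.08, adjusted p = 0.0231). That call was lost without DOX replicate 1 (adjusted p = 0.0738), vehicle replicate 1 (0.0775) or vehicle replicate 3 (0.0774), where, as below, a bare value after a left-out library is its adjusted p. In BON-1 it held 443.9, 379.1 and 387.7 CPM in vehicle and 312.8, 316.4 and 302.1 with DOX, all below vehicle (-0.38 ± 0.08, adjusted p = 0.000337). The difference between the lines, BON-1 minus QGP-1, was -0.64 ± 0.12 (adjusted p = 0.000599, interaction term). H1FX (H1.10) fell in both lines, by 0.35 in QGP-1 and by 1.01 in BON-1 (76.01, 70.77 and 68.18 CPM to 37.16, 40.04 and 29.72). Its QGP-1 call (adjusted p = 0.0329) was lost without any of DOX replicates 1 (0.116) and 3 (0.066) and vehicle replicates 1 (0.123) and 2 (0.159), and the QGP-1 groups overlapped.

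H2A and H2B pair in the dimers that flank the H3-H4 tetramer of the nucleosome. Of the clustered H2A genes, 12 of 14 were called lower in each line, with medians of -0.85 in QGP-1 and -0.51 in BON-1. Of the H2B genes, 14 of 17 were called lower in each line, with a median of -0.60 in both. HIST1H2AB showed one of the deepest drops in QGP-1, from 41.54, 43.08 and 35.93 CPM in vehicle to 14.3, 18.33 and 17.92 with DOX (-1.26 ± 0.11, adjusted p = 2.50e-06), and fell by 0.74 in BON-1. HIST2H2AC, of the HIST2 cluster, fell by 0.68 and 0.58 on the log2 scale in QGP-1 and BON-1, HIST1H2AL by 0.92 and 0.89, and HIST1H2BC by 0.85 and 0.46. HIST1H2BG fell by 0.68 and 0.48, HIST1H2BL by 0.76 and 0.90 and HIST1H2BF by 0.65 and 0.47. HIST2H2BE, an H2B gene of the HIST2 cluster, held 1161, 1197 and 1007 CPM in QGP-1 vehicle and 939.5, 797.5 and 779.1 with DOX. In BON-1 the values were 562.3, 492.3 and 528.5 CPM and then 381.8, 365.1 and 365.5. Neither line's groups overlapped, with fold changes of -0.42 ± 0.09 and -0.51 ± 0.08.

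Most H2A genes lie head to head with an H2B gene, the 2 starts sharing 1 short stretch of DNA. There were 12 such pairs, of which 11 could be tested in both lines. In QGP-1 the H2A gene had the more negative fold change in 10 of 11 pairs (median difference H2A minus H2B, -0.19). In BON-1 it did in 3 of 11 (median difference 0.08). These are counts of signs, and no gap was tested. Some gaps were small, such as that of HIST1H2AC and HIST1H2BC (-0.018 in QGP-1, 0.0053 in BON-1). The QGP-1 exception was HIST1H2AD and HIST1H2BF (0.40), where HIST1H2AD held at most 0.694 CPM in a QGP-1 library. The widest gap in both lines was between HIST1H2AH and HIST1H2BK, whose starts lie 248 bases apart. HIST1H2AH held 125.5, 132.7 and 104.7 CPM in QGP-1 vehicle and 38.81, 55.28 and 60.46 with DOX, and fell by 1.23 ± 0.13 there and by 0.80 ± 0.11 in BON-1. HIST1H2BK held 351.8, 370.7 and 295.7 CPM in QGP-1 vehicle and 340.4, 286.2 and 288.5 with DOX, and in BON-1 190.3, 152.9 and 186.7 and then 190.6, 198.3 and 193.3. It was called in neither line, at -0.15 ± 0.09 (adjusted p = 0.211) and 0.14 ± 0.08 (adjusted p = 0.206), although without QGP-1 vehicle replicate 3 it was called lower in QGP-1 (0.0373). GENCODE gives HIST1H2BK 1 transcript, which ends 5 bases past its loop, while the RefSeq gene spans 8566 bases and runs over HIST1H4I on the other strand, and whether the counting used strand is not given in the sources used here.

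**Figure D3:**
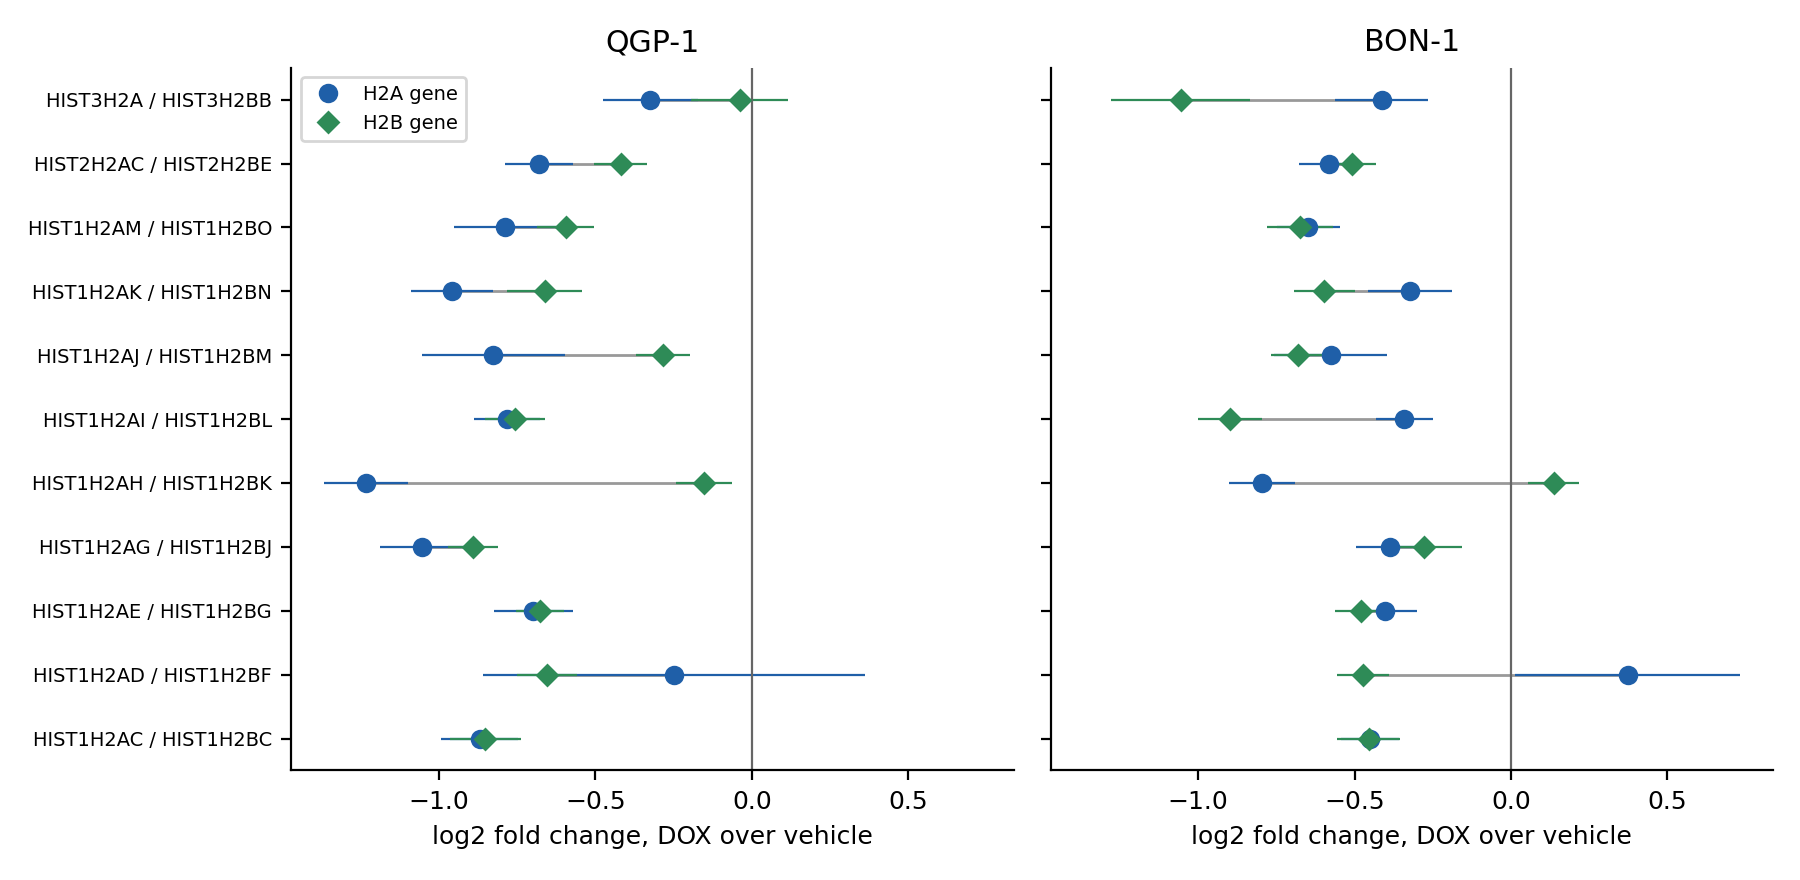
Log2 fold change, DOX over vehicle, with standard errors, of the H2A gene (circle) and H2B gene (diamond) of the 11 head-to-head pairs tested in both lines, QGP-1 left and BON-1 right. The H2A gene lay further left in 10 pairs in QGP-1 and in 3 in BON-1. HIST1H2AH and HIST1H2BK were farthest apart in both. Some gaps were small, such as -0.018 for HIST1H2AC and HIST1H2BC in QGP-1, and no gap was tested. A common shift of scale moves both genes of a pair alike.

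Among the variants of H2A, H2AFZ (H2A.Z, placed at promoters and enhancers) fell in both lines. It held 219.3, 233.7 and 209.1 CPM in QGP-1 vehicle and 148.1, 176.4 and 169.8 with DOX (-0.42 ± 0.08, adjusted p = 0.000836). In BON-1 it went from 222.8, 270.8 and 246.3 CPM to 218.7, 189.9 and 191.2 (-0.30 ± 0.08, adjusted p = 0.00491), a call lost without vehicle replicate 2 (0.0502). The groups did not overlap in either line. H2AFV, which encodes the second H2A.Z protein, was at 0.18 in QGP-1 (adjusted p = 0.0764) and -0.23 in BON-1 (adjusted p = 0.0215). The BON-1 call for H2AFV was lost without DOX replicates 1 (0.0789) or 2 (0.0595) or vehicle replicate 1 (0.0775). It was also lost on centred log2(TPM + 1) (0.0779) and centred log2(TPM + 0.1) (0.091). In QGP-1 H2AFV was called higher without DOX replicate 3 (0.037), with library size scaling (0.0455) and on centred log2(TPM + 1) (0.0266).

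H2AFX encodes H2A.X, which is phosphorylated at DNA breaks, and shares the stem-loop with the clustered genes. It held 65.22, 65.14 and 58.9 CPM in BON-1 vehicle and 50.38, 52.63 and 34.1 with DOX (-0.47 ± 0.11, adjusted p = 0.0018). In QGP-1 it held 96.04, 89.06 and 63.16 and then 51.72, 78.91 and 71.27, overlapping groups (-0.30 ± 0.15, adjusted p = 0.147), and was called lower there without vehicle replicate 3 (0.017). H2AFY (macroH2A1, of the inactive X and silent genes) went from 221.1, 211.0 and 197.2 CPM to 159.0, 157.8 and 149.0 in BON-1 (-0.43 ± 0.08, adjusted p = 4.54e-05) and was at -0.11 in QGP-1 (adjusted p = 0.212). H2AFJ was at -0.29 in BON-1 (adjusted p = 0.0218), a call lost without DOX replicate 3 (0.0556), vehicle replicate 2 (0.0804) or vehicle replicate 3 (0.0749), and at -0.01 in QGP-1 (adjusted p = 0.975). H2AFY2 (macroH2A2) was called in neither line, at -0.05 in QGP-1 and -0.28 in BON-1, but was called lower in BON-1 with library size scaling (-0.32, adjusted p = 0.0344).

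H3 and H4 form the core tetramer. The clustered H3 genes were called lower in 10 of 11 cases in QGP-1 (median -0.74) and 10 of 12 in BON-1 (median -0.59). HIST1H3I had the most negative fold change of the called H3 genes in both lines. It went from 134.8, 124.6 and 100.6 CPM to 43.93, 64.18 and 60.74 in QGP-1 and from 56.31, 52.5 and 50.34 to 21.56, 23.82 and 15.22 in BON-1. The groups did not overlap, with fold changes of -1.09 ± 0.13 (adjusted p = 3.15e-05) and -1.40 ± 0.12 (adjusted p = 5.23e-10). HIST1H3C fell by 0.92 and 0.57 on the log2 scale in QGP-1 and BON-1, HIST1H3F by 0.74 and 0.61 and HIST1H3J by 0.53 and 0.32. HIST1H3B held 589.2, 584.8 and 452.2 CPM in QGP-1 vehicle and 357.0, 464.0 and 420.6 with DOX, overlapping groups. Its QGP-1 call (-0.39 ± 0.11, adjusted p = 0.0113) was lost without vehicle replicate 1 (0.0621) or 2 (0.065), while in BON-1 it fell by 0.37 without overlap (adjusted p = 0.000353).

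The H3.3 gene H3F3B, which supplies H3 outside S phase, was called in neither line. It held 559.7, 521.3 and 532.2 CPM in QGP-1 vehicle and 562.0, 645.7 and 599.5 with DOX, all above vehicle (0.16 ± 0.07, adjusted p = 0.0802). In BON-1 it held 440.8, 409.4 and 428.4 CPM and then 380.3, 384.5 and 358.8, all below vehicle (-0.19 ± 0.07, adjusted p = 0.0524). It was called higher in QGP-1 without DOX replicate 1 (0.0219) and on centred log2(TPM + 1) (0.0284). It was called lower in BON-1 without vehicle replicate 2 (0.0476) and under 5 other settings, DESeq2 (0.0178), library size scaling (0.00955), at least 10 counts in every library (0.0285), no filter (0.0334) and centred log2(TPM + 1) (0.0451). H3F3C was near 3 CPM in each group and was called in neither line. The near-copy H3F3AP4 was at 0.18 in QGP-1 (adjusted p = 0.129; called without DOX replicate 1, 0.0471) and at -0.22 in BON-1 (adjusted p = 0.038). Its BON-1 call was lost without DOX replicate 2 (0.0828) or vehicle replicate 1 (0.0672), 2 (0.0504) or 3 (0.111). The other pseudogenes and H1FX-AS1 were at or below 3.33 CPM in every library, and none of those tested was called.

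Clustered H4 genes had the most negative median of the 5 proteins in QGP-1, where 11 of 11 were called lower (median -1.0) and their summed CPM fell by 51.2%. In BON-1, 6 of 10 were called lower (median -0.45), their sum was 21.1% lower and the groups overlapped. HIST1H4I (chr6:27139282-27139678) had the largest drop of any clustered gene in QGP-1, from 34.33, 40.56 and 30.97 CPM to 7.483, 11.23 and 11.71 (-1.80 ± 0.15, adjusted p = 1.67e-06). In BON-1 vehicle it had 8 counts in 3 libraries, and the QGP-1 level was 311.9 times higher (95% counting interval 158.3 to 722.4). HIST1H4B went from 244.4, 282.0 and 260.7 CPM to 140.7, 113.6 and 113.6 in QGP-1 (-1.10 ± 0.09) and from 171.6, 171.1 and 181.4 to 116.4, 111.7 and 99.96 in BON-1 (-0.68 ± 0.08). HIST1H4E fell by 0.93 and 1.00 in the 2 lines, and HIST1H4L by 1.01 and 0.57.

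The next comparison asked whether the DOX response itself differed between BON-1 and QGP-1, with an interaction term fitted over all 12 libraries. It was called for 18 of 59 clustered genes, against 16.7% of all genes, 13 with the more positive change in BON-1 and 5 with the more negative. Over all 16598 genes tested, 8.8% were called more positive and 7.92% more negative. For 5 of 10 variants it was called, all more negative in BON-1, and 0 variants were more positive at an unadjusted p under 0.05 or with DESeq2. The clustered count was 8 without BON-1 DOX replicate 1 and 11 without BON-1 vehicle replicate 2, and the variant count was 3 without QGP-1 vehicle replicate 2. The called clustered genes with the more positive change were H4 in 6 cases, H2A in 3, H2B in 2 and H3 in 2, and all 5 with the more negative change were H2B.

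**Figure D4:**
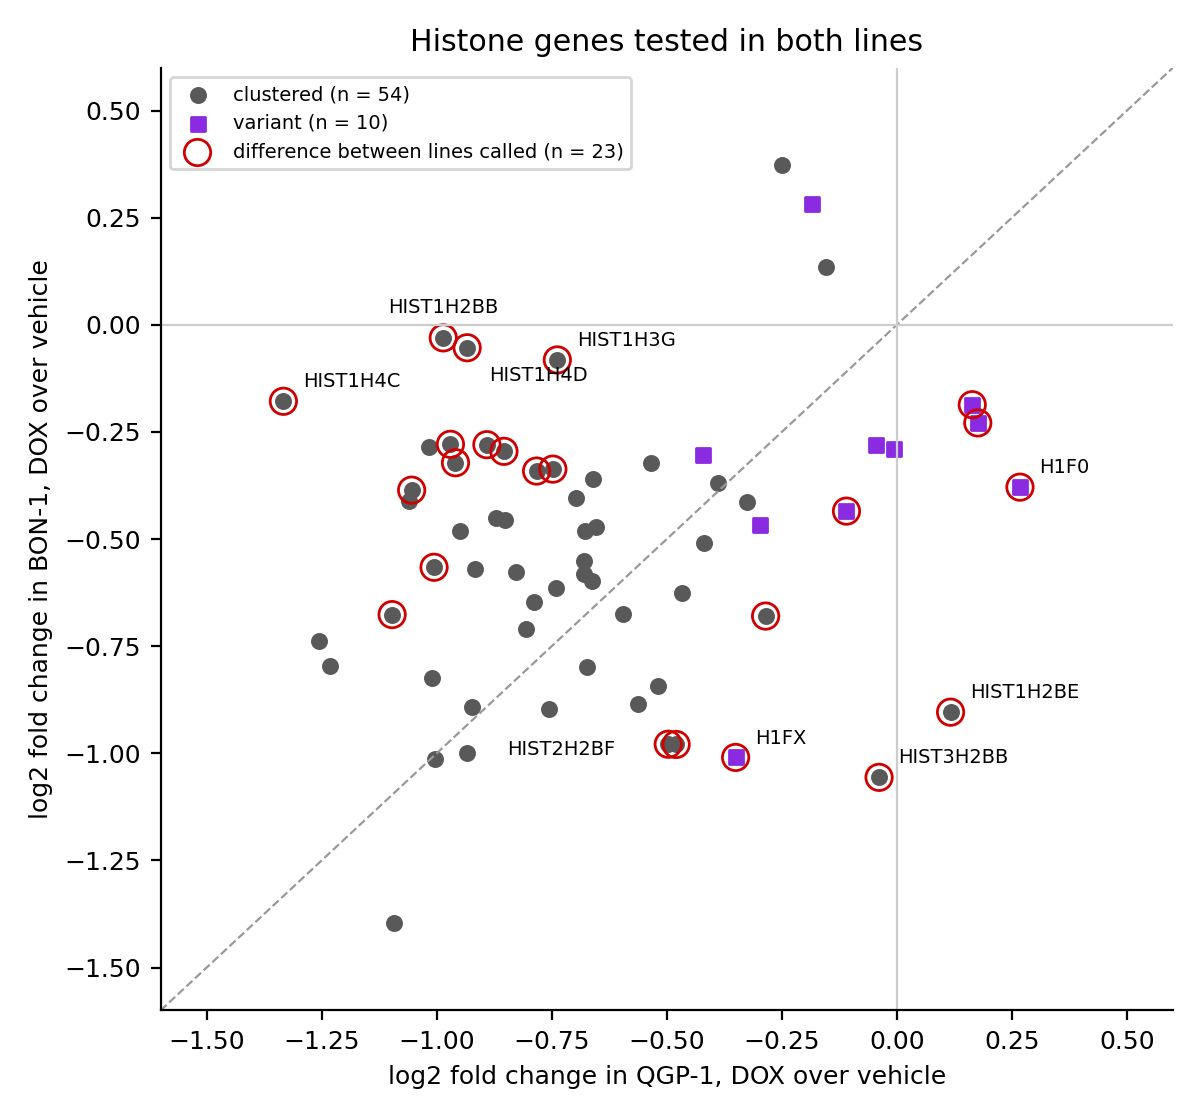
Log2 fold change, DOX over vehicle, in QGP-1 (x axis) against BON-1 (y axis) for 54 clustered (circles) and 10 variant (squares) histone genes tested in both lines; red rings mark the 23 whose difference between the lines was called and the dashed line marks equal change. HIST1H4C, HIST1H4D, HIST1H2BB and HIST1H3G lie left of 0 and close to 0 on the y axis, HIST3H2BB and HIST1H2BE low and near 0 on the x axis, and H1F0 has opposite signs; on uncentred TPM the x values shift by 0.59 in the median and the y values by -0.31.

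Among the called genes the gap was widest for HIST1H4C, which held 118.8, 143.8 and 117.8 CPM in QGP-1 vehicle and 53.77, 47.68 and 49.43 with DOX (-1.33 ± 0.09, adjusted p = 2.31e-07). In BON-1 it held 46.51, 37.07 and 38.67 CPM and then 44.09, 40.62 and 23.87, overlapping groups (-0.18 ± 0.14, adjusted p = 0.35). The difference, BON-1 minus QGP-1, was 1.16 ± 0.20 (adjusted p = 0.000233). HIST1H4D was alike, at 290.3, 284.6 and 281.1 CPM in QGP-1 vehicle and 143.3, 150.0 and 154.8 with DOX (-0.93 ± 0.06). In BON-1 it ranged from 193.9 to 281.4 CPM in vehicle and from 176.3 to 295.7 with DOX (-0.05 ± 0.13), and the difference was 0.89 ± 0.18 (adjusted p = 0.00129).

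HIST1H2BB and HIST1H3G had the same form. HIST1H2BB went from 25.07, 19.99 and 19.39 CPM to 10.99, 11.25 and 10.27 in QGP-1 (-0.99 ± 0.12) and from 15.62, 11.48 and 15.22 to 17.2, 14.41 and 10.03 in BON-1 (-0.03 ± 0.17), a difference of 0.96 ± 0.22 (adjusted p = 0.00421). HIST1H3G went from 54.26, 63.65 and 46.84 CPM to 28.34, 36.2 and 34.3 in QGP-1 (-0.74 ± 0.12) and from 201.1, 178.2 and 241.0 to 206.7, 197.7 and 181.5 in BON-1 (-0.08 ± 0.09), a difference of 0.67 ± 0.15 (adjusted p = 0.00387). In all 4 genes the QGP-1 groups were apart and the BON-1 groups overlapped.

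The opposite form was seen in HIST2H2BF, which fell in both lines, by 0.50 ± 0.10 in QGP-1 and by 0.98 ± 0.08 in BON-1 (135.8, 126.6 and 138.9 CPM to 66.56, 69.32 and 67.69), a difference of -0.47 ± 0.13 (adjusted p = 0.0139). HIST3H2BB, a gene of the HIST3 cluster, held 8.912, 7.228 and 10.45 CPM in BON-1 vehicle and 3.787, 5.877 and 3.054 with DOX (-1.06 ± 0.22, adjusted p = 0.000454). In QGP-1 its groups overlapped (-0.04 ± 0.16, adjusted p = 0.875), and the difference of -1.01 ± 0.29 (adjusted p = 0.0176) was lost without BON-1 DOX replicate 3, BON-1 vehicle replicate 3 or QGP-1 vehicle replicate 3 (0.0505 to 0.0572).

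Before any DOX, the 2 lines already differed widely in their histone transcripts. In vehicle, 42 of 59 clustered genes were called lower in BON-1 than in QGP-1 and 11 higher, with a median BON-1 minus QGP-1 difference of -0.78 on the log2 scale against 0.03 over all genes. Of all 15835 genes tested, 38% were called lower and 39.4% higher. Clustered genes were not alone in this. Of 17 tested RNAs without a poly(A) tail, from a list described below, 11 were called lower in BON-1 and 4 higher (median -0.996). Of 34 replication genes, 22 were called lower and 8 higher (median -0.55). Lists of histone mRNA biogenesis (15 lower, 12 higher), chaperones (13 and 14) and poly(A) machinery (5 and 5) were more even. Their part in the clustered difference was not tested. Variants split evenly, with 3 lower (H2AFX -0.43, H2AFY2 -0.77, H3F3B -0.38), 3 higher (H1F0 0.83, H1FX 0.71, H2AFJ 2.09) and a median of -0.04. Abundant genes did not all lie near the clustered median. HIST2H2BE was at -1.13 ± 0.08, HIST1H2BC at -1.22 ± 0.07 and HIST2H2AC at -1.29 ± 0.09, all more negative. With each library left out in turn, HIST1H3B ran from -0.60 to -0.44, HIST1H3J from -0.44 to -0.26 and HIST1H4D from -0.35 to -0.10, all less negative. HIST1H3C (0.85 ± 0.10) and HIST1H3G (1.87 ± 0.11) were higher in BON-1.

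**Figure D5:**
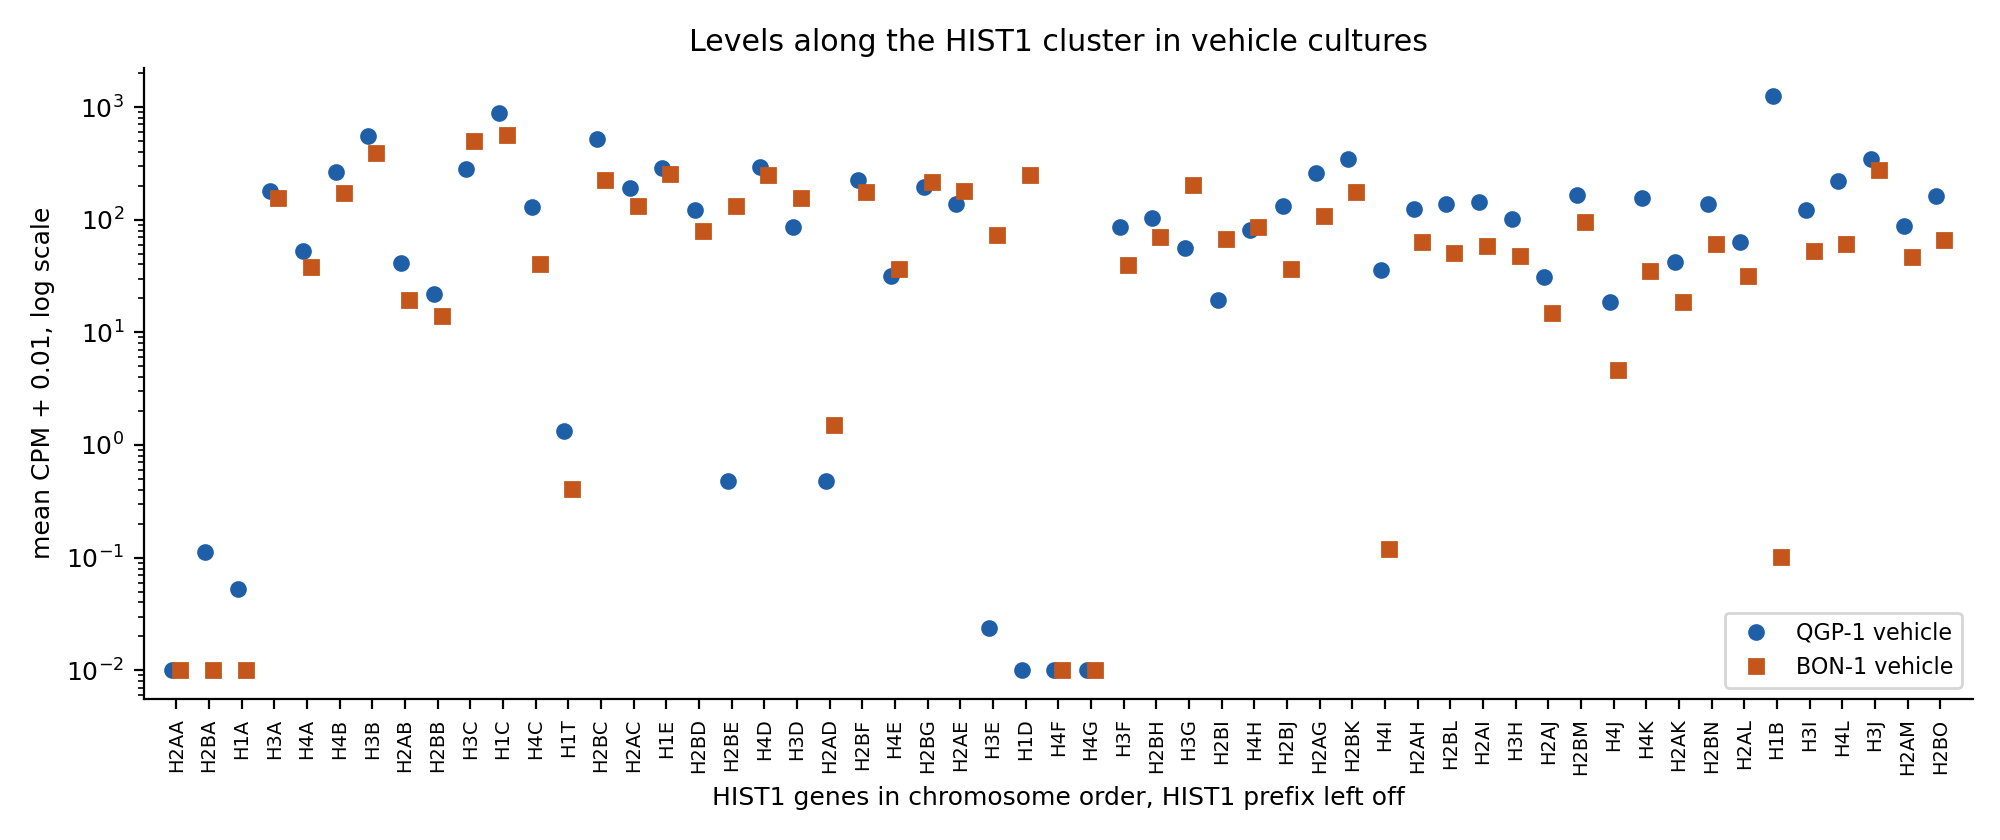
Mean CPM in vehicle cultures (n = 3, log axis, 0.01 added so that genes at 0 can be drawn) of the HIST1 genes in chromosome order, QGP-1 as circles and BON-1 as squares. Most genes lie within 1 decade of each other in the 2 lines, while H3E, H1D and H2BE are far higher in BON-1 and H1B and H4I far higher in QGP-1.

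Along HIST1 the genes that were present in 1 line and nearly absent in the other were HIST1H1B and HIST1H4I in QGP-1 and HIST1H1D, HIST1H3E and HIST1H2BE in BON-1. HIST1H3E and HIST1H2BE were named after their values were seen. HIST1H3E (chr6:26224178-26227473) held 70.44, 75.29 and 76.01 CPM in BON-1 vehicle and 2 counts over 6 QGP-1 libraries, a ratio of 4710 (95% counting interval 1304 to 38890). Both counts were in QGP-1 vehicle replicate 3, and without it the ratio was only bounded, at least 1959-fold against a floor of 3 counts. It is the neighbour of HIST1H1D, which was at 0 in QGP-1, and the next 2 genes, HIST1H4F and HIST1H4G, were at 0 in both lines. HIST1H2BE (chr6:26183761-26184230) stood 293.7 times higher in BON-1 (95% counting interval 227.2 to 386.8), where it went from 146.6, 123.1 and 131.6 CPM to 76.63, 71.51 and 66.57 with DOX (-0.90 ± 0.08, adjusted p = 2.36e-09). Its QGP-1 level of 0.462 CPM is too low for a firm fold change (0.12 ± 0.56). HIST1H3E fell in BON-1 by 0.77 ± 0.11 (adjusted p = 1.67e-06).

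Compared per unit of length, on the deposited TPM values of vehicle cultures, the leading histone transcripts of QGP-1 were HIST1H4B (1393 ± 98.2 TPM, n = 3), HIST1H4D (1319 ± 121), HIST1H2BC (1223 ± 88.5) and HIST2H2AC (1203 ± 203), which lie within their spread of one another. In BON-1 they were HIST1H4D (2774 ± 329), HIST1H3C (2646 ± 718), HIST1H4B (2273 ± 462) and HIST1H3B (1897 ± 324), again with overlapping spreads between neighbours. The highest variant in both lines was H2AFZ, at 118 ± 12.2 TPM in QGP-1 and 332 ± 99.0 in BON-1. It was followed by H3F3B (73.4 ± 7.77) and H2AFY (42.0 ± 3.38) in QGP-1 and by H1F0 (171 ± 22.8) and H3F3B (144 ± 23.7) in BON-1. TPM levels are not compared between the lines here, because non-polyadenylated RNAs took 82.3 to 84.4% of all TPM in QGP-1 vehicle and 53.1 to 67.9% in BON-1 vehicle.

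Since clustered transcripts normally lack a poly(A) tail, other RNAs without one were followed in the same libraries. The 2468 genes of this kind (7SK, 7SL, RNase P, small nuclear, small nucleolar and micro RNAs) took 6.69 ± 0.621% of counts in QGP-1 vehicle and 4.15 ± 0.737% with DOX, without overlap. In BON-1 they took 2.14 ± 0.553% and 3.21 ± 1.22%, overlapping groups with the higher mean under DOX. Clustered histone genes took 1.09 ± 0.126% and 0.692 ± 0.0259% of counts in QGP-1 and 0.70 ± 0.0357% and 0.477 ± 0.0483% in BON-1. With these RNAs taken out of the totals, the clustered sum fell by 37.4% in QGP-1 and by 29.5% in BON-1. Of 26 listed RNAs of this kind, 9 of 17 tested were called lower and 0 higher in QGP-1, with a median of -0.58 (RN7SL2 -1.26, RPPH1 -1.20). In BON-1, 0 of 14 were called lower and 4 higher, with a median of 0.40 (RPPH1 0.75). That is 52.9% lower in QGP-1 and 28.6% higher in BON-1, beside 17.7% and 17% of all genes. RN7SK was at -0.61 in QGP-1 and 0.66 in BON-1, and the BON-1 call was lost without DOX replicate 1 (0.122) or vehicle replicate 2 (0.0625), with DESeq2 (0.188) and on TPM centred with either pseudocount (0.137 and 0.172). They fell beside the clustered histone genes in QGP-1 and did not in BON-1, where the clustered genes fell too. Their part in the QGP-1 result was not tested.

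The clustered genes with an annotated transcript past the loop were read apart for the same reason. In QGP-1, 10 of 14 of them were called lower (median -0.73), against 41 of 43 of those without one (median -0.78). In BON-1 the counts were 13 of 15 (median -0.51) and 32 of 41 (median -0.57). The medians of the 2 kinds differed by less than 0.1 in each line. The split used GENCODE alone. HIST1H2BK, called in neither line, was counted as without such a transcript although its RefSeq gene spans 8566 bases, so its place is uncertain.

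The genes that make, load and use histones were described from lists. Of 34 tested genes of histone mRNA biogenesis, which includes stem-loop processing factors and U7 snRNP proteins, 8 were called lower and 5 higher in QGP-1 (median -0.04) and 5 lower and 1 higher in BON-1 (median -0.05). That is 23.5% lower and 14.7% higher in QGP-1 and 14.7% and 2.94% in BON-1, beside 17.7% and 17.3% of all genes in QGP-1 and 18.3% and 17% in BON-1. SLBP, the stem-loop binding protein, was called in neither line (-0.11, adjusted p = 0.292, and -0.16, adjusted p = 0.22), nor was NPAT, the coactivator of clustered histone genes (0.01 and -0.03). SNRPB, a core protein shared by spliceosomal and U7 particles, fell by 0.87 in QGP-1 and by 0.91 in BON-1. SNRPE fell by 0.80 in QGP-1 and was at -0.05 in BON-1, and SNRPF rose by 0.50 in BON-1.

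Of 36 histone chaperone and deposition genes, 6 were called lower and 8 higher in QGP-1 (median -0.04) and 13 lower and 2 higher in BON-1 (median -0.13). That is 16.7% lower and 22.2% higher in QGP-1, beside 17.7% and 17.3% of all genes, and 36.1% and 5.56% in BON-1, beside 18.3% and 17%. CHAF1B, a subunit of the CAF-1 complex that loads H3-H4 behind the replication fork, fell by 0.62 and 0.65. UBN2, of the HIRA complex that loads H3.3, rose by 0.63 in QGP-1, and TONSL, which binds new H4 at forks, fell by 0.64 in BON-1. CENPA, the centromeric H3 variant, fell by 0.54 in BON-1 (adjusted p = 0.00171) and by 0.43 in QGP-1 (adjusted p = 0.0378), where the call was lost without any of 4 libraries, DOX replicates 1 and 3 and vehicle replicates 1 and 2.

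Genes of S phase were described in the same way. Of 34 replication genes, 20 were called lower and 0 higher in QGP-1 (median -0.26; PRIM1 -0.74, RFC4 -0.60), and 13 lower and 0 higher in BON-1 (median -0.19; TK1 -0.59, POLA2 -0.52). That is 58.8% lower in QGP-1 and 38.2% in BON-1, beside 17.7% and 18.3% of all genes, with the other 14 and 21 genes not called. In each line 1 of the 34 was higher at an unadjusted p under 0.05, and 1 with DESeq2. Their part in the fall of the clustered genes was not tested. Of 14 genes of the general poly(A) machinery, 2 were called higher in QGP-1 (RBBP6 0.48, PCF11 0.42), which is 14.3% beside 17.3% of all genes. Called lower there were 0 (median 0.12), and in BON-1 edgeR called 0 in either direction (median 0.05). Those counts of 0 were also 0 at an unadjusted p under 0.05 and with DESeq2, as were the counts of 0 among the 26 RNAs without a poly(A) tail.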

How the data were processed

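RNA was isolated from triplicate cultures of each group, and stranded libraries were prepared after poly(A) selection. According to the submitters' processing notes and methods, reads were aligned with STAR to GRCh38 (hg38) and counted per gene. The deposited tables hold these gene counts, as whole numbers, and TPM values that the authors derived from them. How reads shared by near-identical copies were counted, the use of strand, and the lengths behind TPM are not given in the sources used here. The TPM tables list fewer genes than the count tables. The number of per-sample columns left unused was 0.

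Counts were filtered with filterByExpr, scaled by TMM and tested with edgeR 4.0.16 (quasi-likelihood; R 4.3.3), separately in each line, between the vehicle groups, and with an interaction over all 12 libraries. The scripts recovered known changes when tested on simulated data. DESeq2 1.42.0, limma 3.58.1 on log2(TPM + 1) or log2(TPM + 0.1), other scaling and filters, a replicate block and each library left out in turn were the alternatives. Same-numbered vehicle and DOX libraries did not deviate together (r from -0.07 to 0.12 over genes), so the numbers were not taken as pairs. Replicates differed beyond sampling noise.

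Genes were named by rule: MUC1, every testable variant, the 12 clustered genes with the highest mean CPM, up to 12 called alike in both lines, the 3 most extreme called clustered genes in each direction and line, and up to 6 members called in the interaction. From each other list up to 4 called genes per line were named, and SLBP, NPAT and CENPA always. The members and lists were chosen with earlier results of these data known. Total counts, 15981954 to 50525926 per library, set the precision of low genes. Stem-loops were read from the hg38 genome within 200 bases after the stop codon with GENCODE v44, and promoters from RefSeq.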

Additional observations from a re-analysis of the deposited data

Results flagged for a closer look

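The DOX response of 14 named members differed between the lines in edgeR's interaction test. Each value is the log2 fold change in BON-1 minus that in QGP-1, with the adjusted p. More negative in BON-1 were the variants H1F0 (-0.64, 0.000599), H1FX (-0.65, 0.00862), H2AFV (-0.39, 0.0176), H2AFY (-0.32, 0.0324) and H3F3B (-0.34, 0.0241). The H2B genes HIST2H2BF (-0.47, 0.0139), HIST3H2BB (-1.01, 0.0176) and HIST1H2BE (-1.07, 0.0461) were more negative too. More positive in BON-1 were the H4 genes HIST1H4C (1.16, 0.000233), HIST1H4D (0.89, 0.00129), HIST1H4L (0.45, 0.029) and HIST1H4B (0.43, 0.0149), with HIST1H2BB (0.96, 0.00421) and HIST1H3G (0.67, 0.00387).

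Several of these calls rested on single libraries. That of H2AFY was lost without QGP-1 vehicle replicate 1, 2 or 3, that of H3F3B without QGP-1 DOX replicate 2 (0.0856) or vehicle replicate 2 (0.0632), and that of HIST1H4B without BON-1 DOX replicate 1, QGP-1 DOX replicate 2 or QGP-1 vehicle replicate 2. That of HIST3H2BB was lost without BON-1 DOX replicate 3, BON-1 vehicle replicate 3 or QGP-1 vehicle replicate 3. That of HIST1H4L was lost in 6 of 12 such fits, and that of HIST1H2BE, at 0.462 CPM in QGP-1 vehicle, in 7 of 12 and with DESeq2 (0.0872).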

How the results depend on the processing

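The fall of the clustered genes kept its direction and size under DESeq2, library size scaling, both other count filters and 1 fit of both lines (50 to 52 called lower in QGP-1, 42 to 47 in BON-1), and under TPM centred per library. The deposited TPM without centring changed the counts. In QGP-1 it gave 5 and 6 clustered genes lower and 5 and 7 higher (pseudocounts 0.1 and 1), 0 variants lower with both, and 7 and 10 variants higher, and in BON-1 12 and 21 clustered genes and 1 and 1 variant lower. On summed TPM the log2 ratio of DOX to vehicle was -0.041 for clustered and 0.65 for variant genes in QGP-1 and -0.83 and -0.67 in BON-1, against -0.67, 0.04, -0.51 and -0.32 on CPM. RNAs without a poly(A) tail took 53.1 to 84.4% of TPM in vehicle, and their share moved with DOX; their part was not tested. QGP-1 variants gave 1 lower and 2 higher with library size scaling, 1 lower and 0 higher on centred log2(TPM + 0.1), and 3 higher on centred log2(TPM + 1), and BON-1 variants 4 lower on centred log2(TPM + 0.1); the cause was not tested.

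With 1 library left out, QGP-1 variants ranged from 1 to 3 lower and 0 to 2 higher, the interaction from 8 to 19 clustered and 3 to 5 variant genes, and variants lower in BON-1 vehicle from 3 to 5. Genes that changed sign in those fits were not called: in QGP-1 H2AFJ (-0.13 to 0.10), H2AFY2 (-0.13 to 0.038), H3F3C (-0.49 to 0.028), HIST1H2AD (-0.57 to 0.20), HIST1H2BE (-0.28 to 0.36), HIST3H2BB (-0.21 to 0.12) and NPAT (-0.0069 to 0.0303), and in BON-1 HIST1H2BB (-0.22 to 0.14), HIST1H3G (-0.19 to 0.0313), HIST1H4C (-0.35 to 0.0345), HIST1H4D (-0.23 to 0.11) and NPAT (-0.18 to 0.0396). H2AFJ was 0.0058 in QGP-1 with library size scaling, HIST1H2BE -0.18 and HIST3H2BB 0.037 on centred log2(TPM + 1), and NPAT -0.0197 on centred log2(TPM + 0.1). With the replicate number as a block, 51 and 45 clustered genes were called lower, QGP-1 variants gave 2 lower and 1 higher, and 7 variants were lower in BON-1. The interaction was then called for 19 clustered and 5 variant genes. Same-numbered libraries correlated at r from -0.07 to 0.12 over genes, and only QGP-1 replicate 2 was above 0.1. HIST1H2AD and HIST2H3PS2 had few counts in QGP-1, 108 and 116 over its libraries, so their fold changes there are imprecise. BON-1, sequenced less deeply, held 209 and 703. HIST1H2AD (chr6:26198784-26199293) lies within the span of HIST1H3D (chr6:26196784-26199293) on the same strand. The part of that overlap in its counts was not tested.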
